A study of Mus musculus with 9 samples.

Results

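The genes from Zfp700 to Zfp999 were followed in mouse embryonic stem cells during the first 30 min after induction of a long noncoding RNA. Members were all protein-coding genes of the RefSeq annotation whose symbol runs from Zfp700 to Zfp999, with or without a letter. There were 136 such genes among 21883 protein-coding genes. For each gene the measurement was the read count of 1 window of 600 bp, the bidirectional transcription region centred within 1 kb of either gene end that had the highest mean count over the 9 libraries. Such a region was found for 100 members, and 98 passed the filter on low counts. These 98 rested on 96 distinct windows, because Zfp942 and Zfp943 shared one, as did Zfp944 and Zfp758. The 2 members left out by the filter were Zfp804b and Zfp800, with mean counts of 2.22 and 2.00.

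The cells were embryonic stem cells with the genotype Firre knockout and a doxycycline-inducible Firre transgene, grown on gelatin with LIF, PD0325901 and CHIR99021. Nascent RNA was measured by PRO-seq, in which engaged RNA polymerases incorporate biotinylated nucleotides in isolated nuclei. Groups were 0 min without doxycycline, 15 min and 30 min with 1 ng/µL doxycycline, each with 3 libraries, and all 3 groups carried the knockout and the transgene. No group with doxycycline and without the transgene was used, so drug and transgene cannot be told apart. Separate cultures are not named in the labels, so p-values measure the spread among these libraries only, and that spread may be technical. Reads in regions numbered 3813365 to 5980366 per library, and levels are given in CPM, read counts scaled to a library of fixed size with TMM factors. In the shallowest library 3 counts corresponded to 0.787 CPM. Summed over 8 regions, Firre was at 2.48 to 4.92 CPM at 0 min, 274 to 338 CPM at 15 min and 776 to 791 CPM at 30 min, so the induction matched the labels in all 9 libraries. Of 10 embryonic stem cell markers 8 had a region, with summed levels of 1759 to 2021 CPM in the 9 libraries, and Pou5f1 and Esrrb had none under this rule. Of 5 neuroectoderm markers all had a region, and their summed level was 155 to 168 CPM at 0 min, 121 to 139 CPM at 15 min and 136 to 157 CPM at 30 min. Most of this sum was Olig2, with means of 112, 88.4 and 97.4 CPM at these times, and Tubb3, with 39.4, 34.6 and 39.7 CPM. Sox1, Pax6 and Neurog2 had means of 7.05, 2.10 and 0.725 CPM at 0 min. At 15 min Pax6 alone had a higher mean, at 3.21 CPM, and none of these markers was called at 15 or 30 min. Of 7 feeder fibroblast markers 3 had a region, summing to 4.19 to 7.44 CPM, while Col1a2, Postn, Lum and Dcn had none. Of 6 primitive endoderm markers 3 had one, at no more than 2.48 CPM in sum, and Sox17, Pdgfra and Foxa2 had none. Of 5 trophectoderm markers 3 had one, at no more than 5.22 CPM, and Cdx2 and Elf5 had none. Of 6 two-cell-like markers 1 had one, at no more than 1.46 CPM, and Zscan4c and Zscan4d were among those with none. In a bulk measurement, fewer cells of a type and less RNA per cell cannot be told apart.

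Zfp genes encode proteins with C2H2 zinc fingers, which bind DNA, and many of those with high numbers also carry a KRAB domain. The KRAB domain recruits the co-repressor Trim28, which brings the histone methyltransferase Setdb1 and HP1 proteins to the bound site. In embryonic stem cells this pathway silences endogenous retroviruses and other repeats. KRAB zinc finger genes lie in tandem clusters of related copies. Not all members are of that type: Zfp703 encodes a transcriptional co-repressor without a KRAB domain, and Zfp711 is an X-linked partner of a histone demethylase.

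Clusters were formed from members on the same chromosome separated by no more than 500 kb. By that rule 97 members lay in 19 clusters, of which 16 held at least 3 members and the largest held 14, and 39 members were single. A region was found for 72 of the 97 clustered members (74.2%) and 28 of the 39 single members (71.8%). Over all protein-coding genes the share was 59.2%, and over the genes from Zfp1 to Zfp699 it was 76.4% (197 of 258). Of the 36 members without a region at an end, 15 had one inside the gene and 21 had none.

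Promoter windows of RefSeq (GRCm38.p6, the assembly that mm10 names) run from 250 bases before to 50 bases after the annotated start and matched 119 of the 136 members. The pentamer CCAAT, read on both strands, was found in 77 of these windows (64.7%). It was found in 41.0% of the 210 windows of Zfp1 to Zfp699 and in 39.0% of the 17491 windows of protein-coding genes. At least 2 copies of CCAAT were held by 35 member windows (29.4%), against 13.8% and 13.2% in those sets. Clustered windows held CCAAT in 68.2% and single windows in 54.8%. The members' share was 62.7% when the 17 windows at least 90% identical to another member's were left out. A match is a run of letters in a window and was not tested for binding. The windows below were chosen because the changes described later fall on their genes. They belong to 2 neighbours on chromosome 8 that were called in opposite directions and to a called gene of the chromosome 4 cluster with its closest relative by promoter. Zfp955b is shown for its exact copy, and Zfp809 for its known role. Capitals mark matches on either strand to CCAAT and to 5 other motifs: the GC box GGGCGG, the TATA box TATAAA, the ETS core CCGGAAG, the cyclic AMP response element TGACGTCA and the YY1 core GCCATNTT. Adjoining or overlapping matches run together in capitals.
Zfp868, chr8:69625499-69625798, minus strand: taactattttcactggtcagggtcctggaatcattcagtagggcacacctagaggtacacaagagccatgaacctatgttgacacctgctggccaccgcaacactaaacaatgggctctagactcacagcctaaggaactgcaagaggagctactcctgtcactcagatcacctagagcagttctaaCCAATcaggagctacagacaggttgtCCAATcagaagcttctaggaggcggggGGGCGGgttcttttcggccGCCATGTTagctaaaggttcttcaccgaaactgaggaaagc
Zfp964, chr8:69654306-69654605, plus strand: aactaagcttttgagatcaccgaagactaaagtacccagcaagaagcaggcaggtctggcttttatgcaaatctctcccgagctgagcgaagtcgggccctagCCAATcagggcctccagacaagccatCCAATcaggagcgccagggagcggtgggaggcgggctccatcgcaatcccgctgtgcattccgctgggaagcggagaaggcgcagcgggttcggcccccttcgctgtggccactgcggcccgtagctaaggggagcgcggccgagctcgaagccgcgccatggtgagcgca
Zfp985, chr4:147553027-147553326, plus strand: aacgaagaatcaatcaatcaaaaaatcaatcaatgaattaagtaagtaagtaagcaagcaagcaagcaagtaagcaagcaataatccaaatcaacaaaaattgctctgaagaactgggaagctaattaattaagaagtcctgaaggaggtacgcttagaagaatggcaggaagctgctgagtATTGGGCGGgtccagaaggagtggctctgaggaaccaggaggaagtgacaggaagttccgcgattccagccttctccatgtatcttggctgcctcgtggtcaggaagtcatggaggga
Zfp987, chr4:146097062-146097361, plus strand: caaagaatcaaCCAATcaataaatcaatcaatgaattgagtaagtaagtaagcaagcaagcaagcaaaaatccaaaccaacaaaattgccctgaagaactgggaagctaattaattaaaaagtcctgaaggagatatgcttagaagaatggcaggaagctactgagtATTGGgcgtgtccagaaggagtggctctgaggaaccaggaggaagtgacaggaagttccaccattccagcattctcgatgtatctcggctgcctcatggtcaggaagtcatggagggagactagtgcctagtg
Zfp955b, chr17:33289294-33289593, plus strand: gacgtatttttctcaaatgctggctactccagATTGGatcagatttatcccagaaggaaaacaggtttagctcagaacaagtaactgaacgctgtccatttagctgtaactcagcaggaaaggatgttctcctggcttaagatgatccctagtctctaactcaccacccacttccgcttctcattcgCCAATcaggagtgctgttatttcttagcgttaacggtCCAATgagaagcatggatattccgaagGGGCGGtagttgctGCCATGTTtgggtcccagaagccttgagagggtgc
Zfp809, chr9:22225462-22225761, plus strand: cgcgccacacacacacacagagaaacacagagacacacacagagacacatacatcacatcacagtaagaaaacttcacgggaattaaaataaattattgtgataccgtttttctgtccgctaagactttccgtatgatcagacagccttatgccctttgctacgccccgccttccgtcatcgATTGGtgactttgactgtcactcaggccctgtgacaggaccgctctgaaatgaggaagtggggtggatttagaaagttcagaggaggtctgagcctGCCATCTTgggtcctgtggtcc

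The Zfp868 window holds 2 CCAAT runs, each followed by the bases cag, then GGGCGG and a YY1 core. The Zfp964 window also holds 2 CCAAT runs followed by cag, with neither GGGCGG nor a YY1 core. The closest member promoter to that of Zfp868 was that of Zfp869, identical at 64.3% of aligned positions. The windows of Zfp985 and Zfp987 were identical at 89.0% of positions. The GC box was found in 41.2% of member windows and 46.7% of all coding windows, the TATA box in 3.36% and 13.2%, and the YY1 core in 16.8% and 6.75%. The ETS core was found in 16.0% of member windows and 11.97% of all coding windows, and the cyclic AMP response element in 2.52% and 2.27%. Members' median GC content was 51.7% and their median observed over expected CpG ratio 0.524, against 56.3% and 0.581 over all coding windows. The CpG ratio was 0.484 in clustered and 0.565 in single members.

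Of 17 members whose window was at least 90% identical to another member's, all in clusters, 12 had a region (70.6%), against 77 of the other 102 (75.5%). In all, 6 members formed pairs that were at least 99% identical, a limit chosen after the values were seen, and 1 of these 6 had a region. It was Zfp955b, at 93.1 CPM, whose neighbour Zfp955a carries the same 300 bases and had none. Zfp966 and Zfp967, with identical windows, and Zfp968 and Zfp973, identical at 99.7%, had no region. How reads that map to several copies were counted is not given in the sources used here, so levels of near-identical members are uncertain.

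Regions mostly lay at starts. Among 89 members with a region and a promoter window, the region's centre lay within 1 kb of the RefSeq start in 74 and within 300 bp in 60. In the other 15 it lay farther away, near the other gene end or another annotated end, and 14 of those were clustered members. Zfp771 was measured 9610 bp downstream of its start, Zfp772 at 7268 bp, Zfp775 at 18745 bp and Zfp746 at 23453 bp. The deposited length of the bidirectional regions had a median of 684 bp in clustered members, 773 bp in single members and 638 bp in all coding genes. A window was shared with another gene's end in 16 members, 15 of them clustered, and 12 windows overlapped another window, whose reads cannot then be separated.

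**Figure D1:**
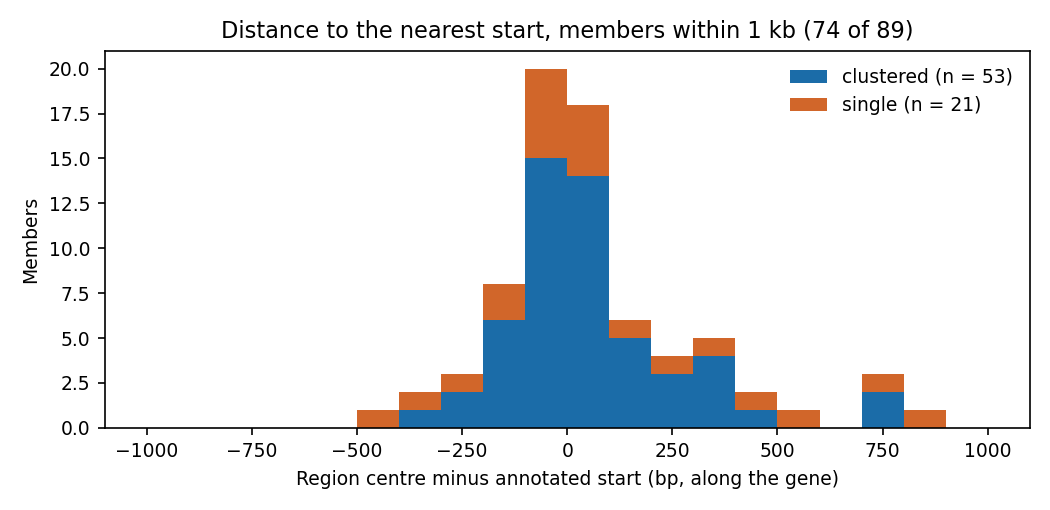
Distance in bp from the annotated start to the centre of the counted region (x axis) and number of members (y axis, stacked for clustered and single members), for the 74 of 89 members within 1 kb. The tallest bars stand on either side of 0, and 60 of the 89 lay within 300 bp.

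In untreated cells member levels spanned 0.326 to 312 CPM per window, with a median of 27.0 CPM and quartiles of 12.2 and 43.9 CPM. All windows had the same length, so window counts can be set side by side. They did not all lie at starts, as for Zfp771, Zfp775 and Zfp746 above, so not every level is that of a promoter. The median was 18.3 CPM over all coding genes with a region, with quartiles of 4.05 and 42.0 CPM, and 23.0 CPM over Zfp1 to Zfp699. Clustered members had a median of 26.3 CPM (quartiles 12.02 and 39.7) and single members 31.4 CPM (12.5 and 58.0). The 3 libraries of 0 min gave clustered medians of 26.3, 27.4 and 25.04 CPM and single medians of 28.6, 29.0 and 29.6 CPM. At 15 min they were 25.4, 24.1 and 25.02 CPM for clustered and 27.9, 27.8 and 29.1 CPM for single members. At 30 min they were 23.7, 24.5 and 26.2 CPM for clustered and 31.7, 33.6 and 32.2 CPM for single members. The single median was the higher in each of the 9 libraries, while the quartiles of both kinds overlapped widely.

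The highest levels belonged to Zfp771 at 312 ± 46.6 CPM (SD, n = 3) and Zfp979 at 240 ± 15.1 CPM (SD, n = 3). They were followed by Zfp710 at 173 ± 21.1, Zfp775 at 160 ± 12.6, Zfp706 at 158 ± 6.06, Zfp961 at 127 ± 18.9, Zfp869 at 122 ± 12.8 and Zfp991 at 121 ± 8.18 CPM (SD, n = 3 each). Neighbours in this order from Zfp710 to Zfp706, and again from Zfp961 to Zfp991, differed by less than the larger of their SDs. Zfp771 and Zfp775 were counted far from their starts. Zfp706, a small zinc finger protein reported to promote exit from self-renewal, gave 185 and 174 CPM as means at 15 and 30 min. Zfp809, which recognises the primer binding site of murine leukaemia virus and silences such proviruses in embryonic cells, was at 47.0 ± 3.38 CPM (SD, n = 3) at 0 min, 43.1 at 15 min and 39.1 at 30 min. Its adjusted p was 0.636 and 0.397 (edgeR), so neither difference passed the threshold. Zfp932 and Zfp819, both linked to repression of endogenous retroelements, were at 26.1 ± 1.98 and 16.9 ± 1.98 CPM (SD, n = 3). Zfp708, a repressor of a retrotransposon family in the germ line and early embryo, was near the low end at 3.90 ± 1.30 CPM (SD, n = 3). Zfp746, the repressor also called PARIS and degraded through parkin, was at 42.8 ± 5.06 CPM, and Zfp750, a regulator of epidermal differentiation, at 53.5 ± 3.26 CPM (SD, n = 3). Zfp768 was at 15.5, Zfp703 at 5.59, Zfp711 at 5.52 and Zfp738 at 4.48 CPM.

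**Figure D2:**
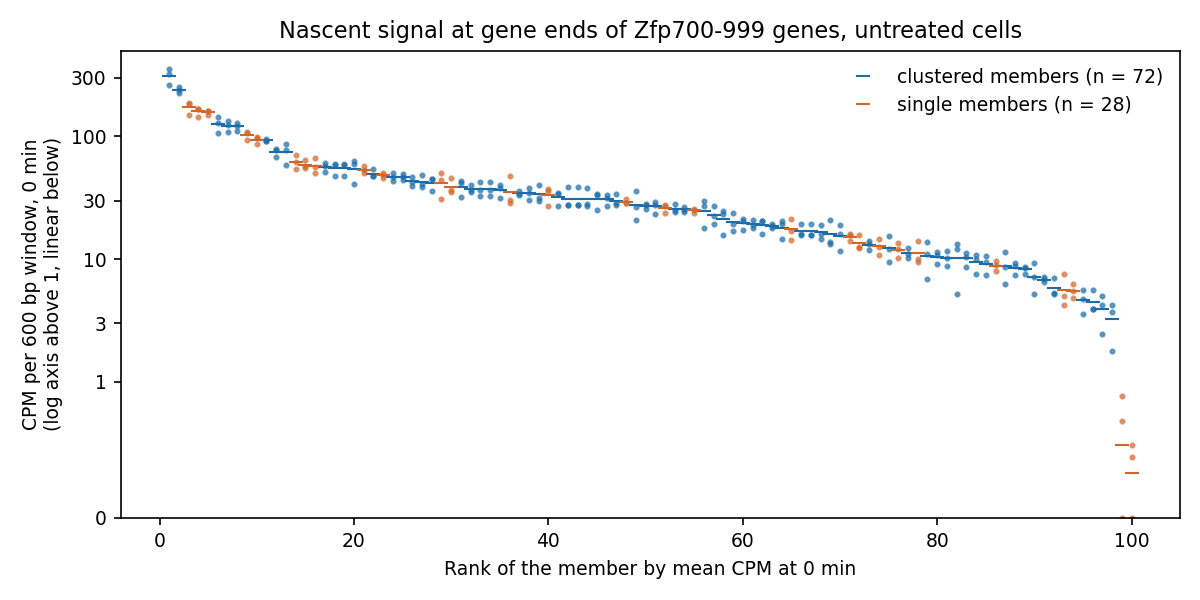
CPM per 600 bp window at 0 min (y axis, logarithmic above 1 and linear below) for the 100 members with a region, ranked by their mean (x axis). Dots are the 3 libraries, dashes their mean, and colours separate 72 clustered from 28 single members; levels fall from 312 CPM at Zfp771 to 0.326 CPM.

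After 15 min of doxycycline, 9 of the 98 tested members passed the test, 1 higher and 8 lower (edgeR's quasi-likelihood test, Benjamini-Hochberg adjusted p below 0.05 over all 54299 tested regions). Zfp868 was the member that rose, and Zfp964, Zfp775, Zfp771, Zfp772, Zfp939, Zfp949, Zfp879 and Zfp950 fell. Members' share called was 9.18%, while 8.25% of all tested regions and 11.2% of protein-coding genes with a tested region were called. Falls were called in 8.16% of members and 9.57% of coding genes, and rises in 1.02% and 1.63%. The count is therefore near the background and is not a result about these genes as a set. The median log2 change was -0.08 in members, -0.15 in coding genes, -0.17 in 189 tested Zfp1 to Zfp699 genes and 0.02 in all tested regions. Of Zfp1 to Zfp699, 22 were called, 1 higher and 21 lower, and with gene-end factors 7 higher and 7 lower. Above 0 were 42 of 98 members and 3499 of 10738 coding genes. These values rested on how libraries were scaled: with TMM factors taken from gene ends the median of all regions moved up by 0.16, the members' median became 0.08, and 4 members were higher (Zfp868, Zfp972, Zfp958 and Zfp706) and 3 lower (Zfp775, Zfp771 and Zfp964). The neuroectoderm marker sum was lower at 15 min than at 0 min as given above, and its part in these changes was not tested.

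Clustered members had 4 calls among 72 tested (5.56%), 1 higher and 3 lower, and single members 5 among 26 (19.2%), all lower, where 8.25% of all tested regions and 11.2% of coding genes were called. These small counts moved with the rule for clusters. With gaps of up to 1 Mb the calls were 5 among 73 clustered members and 4 among the single rest of the 98 tested. Where any Zfp, Zscan or Zkscan gene within 500 kb made a member clustered, they were 7 among 83 and 2 among the rest. The groups thus changed in size as well as in calls. With gene-end factors and the first cluster rule the calls were 4 clustered and 3 single. The median log2 changes of clustered and single members were -0.02 and -0.17, a difference of 0.15. With gene-end factors these medians became 0.14 and -0.01, again a difference of 0.15, so the direction of each rests on the scaling. Against the mean of the 0 min libraries, the 3 libraries of 15 min gave clustered medians of -0.01, -0.05 and -0.06 and single medians of -0.13, -0.22 and -0.11. The single median was lower in each of the 3 libraries, and no library of one kind reached the values of the other. All 3 were set against the same 0 min mean over the same members, so they are not independent. The difference was not tested, since members are not replicates. It was 0.08 where the region had to lie within 500 bp of a gene end and 0.10 where clusters were formed at gaps of up to 250 kb. At 30 min the clustered medians of the 3 libraries were 0.07, -0.05 and 0.00 and the single ones -0.03, -0.06 and -0.07, and these overlapped. Zfp775 lay just outside the cluster limit, 515.0 kb from Zfp746, and counted as single, and the widest gap inside a cluster was 438 kb, from Zfp965 to Zfp966.

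**Figure D3:**
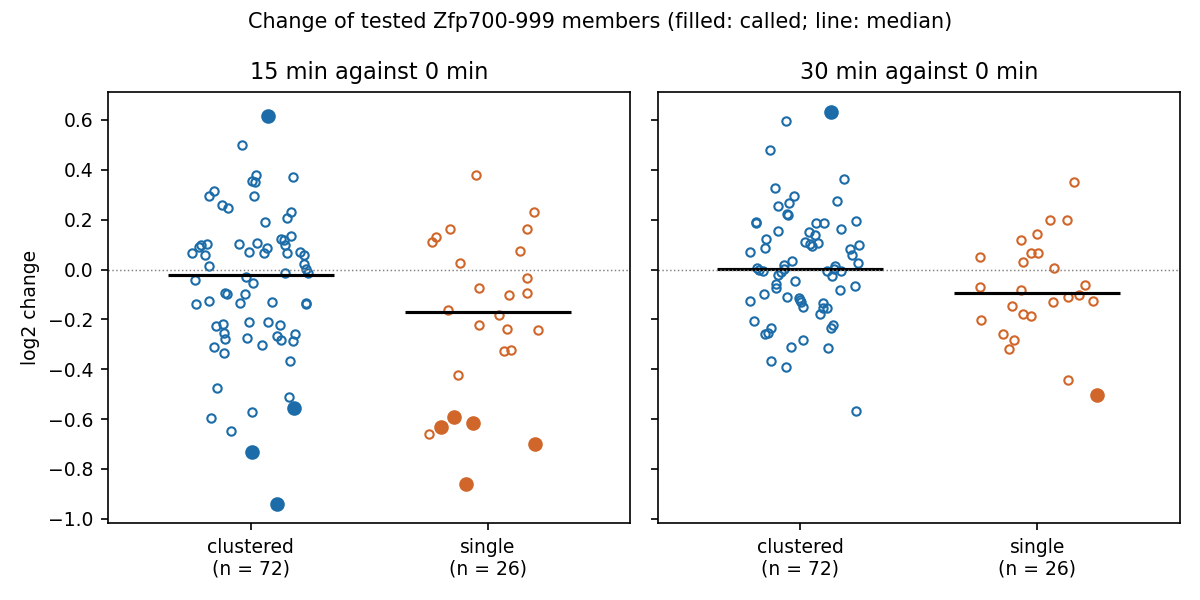
Log2 change (y axis) of the 98 tested members at 15 min (left) and 30 min (right) against 0 min, for 72 clustered and 26 single members. Each circle is a member, filled circles passed the test, and black lines are medians, which stood at -0.02 and -0.17 at 15 min.

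Zfp868, at chr8:69625129-69625728 over its start, gave 19.1, 20.4 and 14.7 CPM at 0 min, 28.7, 28.2 and 26.5 CPM at 15 min, and 19.1, 23.7 and 20.9 CPM at 30 min. All 3 libraries of 15 min lay above all others. The log2 change at 15 min was 0.61 ± 0.17 (SE, n = 3 against 3, edgeR adjusted p = 0.0256), and at 30 min 0.22 ± 0.18 (SE, edgeR adjusted p = 0.591). The call was lost without 0 min library 1, 0 min library 3, 15 min library 1 or 15 min library 2 (log2 change 0.48 to 0.64, adjusted p up to 0.147). It was also lost without the filter on low counts (log2 change 0.57, adjusted p = 0.0662), where 6 members were lower and 0 higher.

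Zfp964, the next member along chromosome 8, gave 29.6, 17.9 and 27.0 CPM at 0 min and 8.33, 11.4 and 20.2 CPM at 15 min from the window chr8:69654599-69655198. The groups overlapped, through the low 0 min library 2 and the high 15 min library 3. The log2 change was -0.94 ± 0.24 (SE, n = 3 against 3, edgeR adjusted p = 0.0151). At 30 min the libraries gave 16.6, 17.9 and 15.9 CPM and a log2 change of -0.57 ± 0.23 (SE, edgeR adjusted p = 0.232). The window overlaps another counted window, and the call was lost without any 1 of the same 4 libraries as for Zfp868 (adjusted p up to 0.127).

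Both genes lie in a cluster of 6 members on chromosome 8 (69209018 to 69774911, GRCm38.p6), of which 5 were tested. Zfp869, the next member along and the highest of the cluster, had a log2 change of 0.13 ± 0.11 (SE), Zfp930 of 0.07 ± 0.16 and Zfp866 of -0.09 ± 0.13, and none of these passed the test. The largest changes of this cluster thus lay at 2 adjacent members and in opposite directions, while the other 3 tested members lay between -0.09 and 0.13.

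Zfp775 was measured at chr6:48620453-48621052, near its far end. It gave 167, 145 and 167 CPM at 0 min, 88.8, 93.4 and 132 CPM at 15 min and 113, 112 and 113 CPM at 30 min. Every treated library lay below every untreated one. The log2 change was -0.62 ± 0.13 at 15 min (SE, edgeR adjusted p = 0.00284) and -0.50 ± 0.13 at 30 min (SE, edgeR adjusted p = 0.0354). At 15 min the call held without any 1 library, with an adjusted p of 0.0312 at most, and it was the only one of the 9 that did. At 30 min it was lost without 0 min library 1 or 3 or without any 30 min library (adjusted p up to 0.152), with gene-end factors (adjusted p = 0.0822) and with the sum over all regions of the gene (adjusted p = 0.0621).

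Zfp771, also counted near its far end at chr7:127253837-127254436, gave 353, 261 and 323 CPM at 0 min and 201, 168 and 271 CPM at 15 min. The groups overlapped by 1 library on each side. The log2 change was -0.55 ± 0.14 (SE, edgeR adjusted p = 0.0149), and the call was lost without 0 min library 1, 15 min library 1 or 15 min library 2 (adjusted p up to 0.0842). At 30 min the libraries gave 205, 284 and 265 CPM. Zfp772 (chr7:7202431-7203030) gave 16.1, 14.6 and 18.9 CPM at 0 min, 8.17, 9.53 and 12.4 CPM at 15 min and 20.2, 12.5 and 16.8 CPM at 30 min. Its 15 min libraries lay below its 0 min libraries, and its log2 change was -0.73 ± 0.22 (SE, edgeR adjusted p = 0.0409). The level at 30 min was back among the values of 0 min.

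The other 4 called members were single genes with low to middle levels, and in each the 3 libraries of 15 min lay below the 3 of 0 min. Zfp879 gave 15.6, 15.9 and 14.2 CPM at 0 min and 9.501, 9.15 and 9.47 CPM at 15 min, a log2 change of -0.70 ± 0.20 (SE, edgeR adjusted p = 0.0320). Zfp950 gave 25.3, 24.0 and 25.4 CPM and then 16.5, 16.8 and 16.3 CPM, a log2 change of -0.59 ± 0.17 (SE, edgeR adjusted p = 0.0275). Zfp939 gave 7.97, 9.62 and 8.92 CPM and then 3.83, 5.91 and 4.86 CPM, a log2 change of -0.86 ± 0.26 (SE, edgeR adjusted p = 0.0402). Zfp949 gave 17.0, 14.3 and 21.2 CPM and then 11.5, 11.1 and 11.2 CPM, a log2 change of -0.63 ± 0.20 (SE, edgeR adjusted p = 0.0487). At 30 min their means lay between those of 0 and 15 min, at 11.3, 21.9, 7.09 and 15.1 CPM in the same order, and none passed the test against 0 min.

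These calls lay close to the threshold. Zfp772 lost its call without 0 min library 1 or 3, 15 min library 1 or 2, or 30 min library 3 (adjusted p up to 0.197). Zfp879 lost it without any 0 min library or without 15 min library 1 or 2 (up to 0.0989), and Zfp950 without 0 min library 1 or 3 or 15 min library 1 or 2 (up to 0.0949). Zfp939 lost it without any 0 min library, 15 min library 1 or 3, or 30 min library 3 (up to 0.196). Zfp949 lost it without any 1 library other than 0 min library 2 (up to 0.199). Other settings ended some of these calls too. With gene-end factors Zfp772, Zfp879, Zfp939, Zfp949 and Zfp950 lost theirs (adjusted p 0.106 to 0.158). With DESeq2, and without a filter, Zfp939 and Zfp949 did (adjusted p 0.0505 to 0.0660), and in a fit of only the 2 groups these 2 and Zfp772 did (0.0514 to 0.0749). Zfp772 lost its call with regions within 500 bp of a gene end (0.107). Leaving out library 1 of 0 min or of 15 min left 1 member called at 15 min, and leaving out library 3 of 0 min or library 2 of 15 min left 2. All of these log2 changes kept their sign in every setting run.

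**Figure D4:**
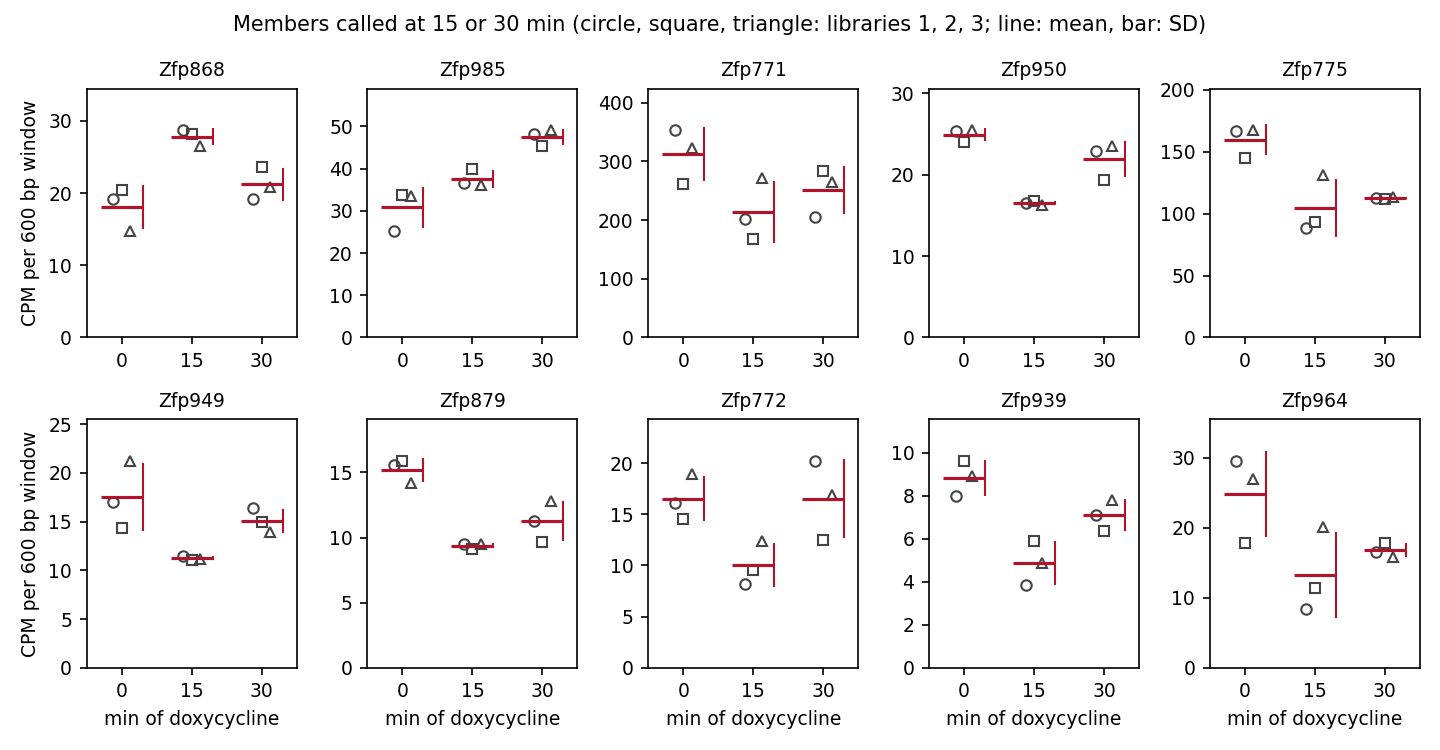
CPM per 600 bp window (y axis, from 0) at 0, 15 and 30 min of doxycycline (x axis) for the 10 members called at 15 or 30 min against 0 min. Circles, squares and triangles are libraries 1, 2 and 3, red lines the mean and vertical bars the SD; Zfp868 alone is highest at 15 min, and the groups of Zfp771 and Zfp964 overlap between 0 and 15 min.

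At 30 min 2 members were called (2.04%), against 1.74% of all tested regions and 1.24% of coding genes. The first was Zfp775, described above, and the other was Zfp985, which rose. Zfp985, at chr4:147552847-147553446 over its start, gave 25.2, 33.8 and 33.6 CPM at 0 min, 36.5, 40.0 and 36.2 CPM at 15 min and 48.3, 45.5 and 49.1 CPM at 30 min. The 3 groups did not overlap, each time lying above the one before. The log2 change was 0.29 ± 0.15 at 15 min (SE, edgeR adjusted p = 0.231) and 0.63 ± 0.15 at 30 min (SE, edgeR adjusted p = 0.0221). The call was lost without 0 min library 1 or without any 30 min library (log2 change 0.49 to 0.66, adjusted p up to 0.194), and the members called numbered 0 without 0 min library 1 or any 1 library of 30 min and 1 without 0 min library 3. The median log2 change of members at 30 min was 0.00, with 47 of 98 above 0, against -0.12 in coding genes, with 3330 of 10738 above 0. With gene-end factors the members' median was 0.10.

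Between 30 and 15 min no member was called by edgeR or by DESeq2 (0 of 98), where 0.704% of all tested regions were called. At an unadjusted p below 0.05 edgeR gave 9 of 98 members, against 5230 of 54299 tested regions and 1145 of 10738 coding genes. The median log2 change of members between these times was 0.08, with 62 of 98 above 0. In coding genes it was 0.04, with 6025 of 10738 above 0. The 30 and 15 min comparisons share the 0 min libraries, so their values for members are set side by side only.

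Zfp985 belongs to the largest cluster, 14 members on chromosome 4 (145510759 to 147849126, GRCm38.p6), of which 11 were tested. Levels in this cluster ran from 4.62 CPM at Zfp988 to 240 CPM at Zfp979. At 15 min 7 of the 11 changes were above 0, with a median of 0.07, and at 30 min 10 of 11, with a median of 0.15. Zfp980, the member with the next largest change at 30 min, stood at 39.0 ± 6.05 CPM (SD, n = 3) at 0 min and 48.7 ± 6.29 CPM (SD, n = 3) at 30 min, a log2 change of 0.33 ± 0.15 (SE, edgeR adjusted p = 0.298). Zfp987, whose promoter is closest to that of Zfp985, stood at 6.80 CPM and had a log2 change of 0.15 ± 0.27 at 30 min (SE, edgeR adjusted p = 0.855), which did not pass the test. Zfp979 had a log2 change of 0.09 ± 0.10 (SE). Zfp988 was the member below 0 at 30 min, at -0.22 ± 0.32 (SE).

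**Figure D5:**
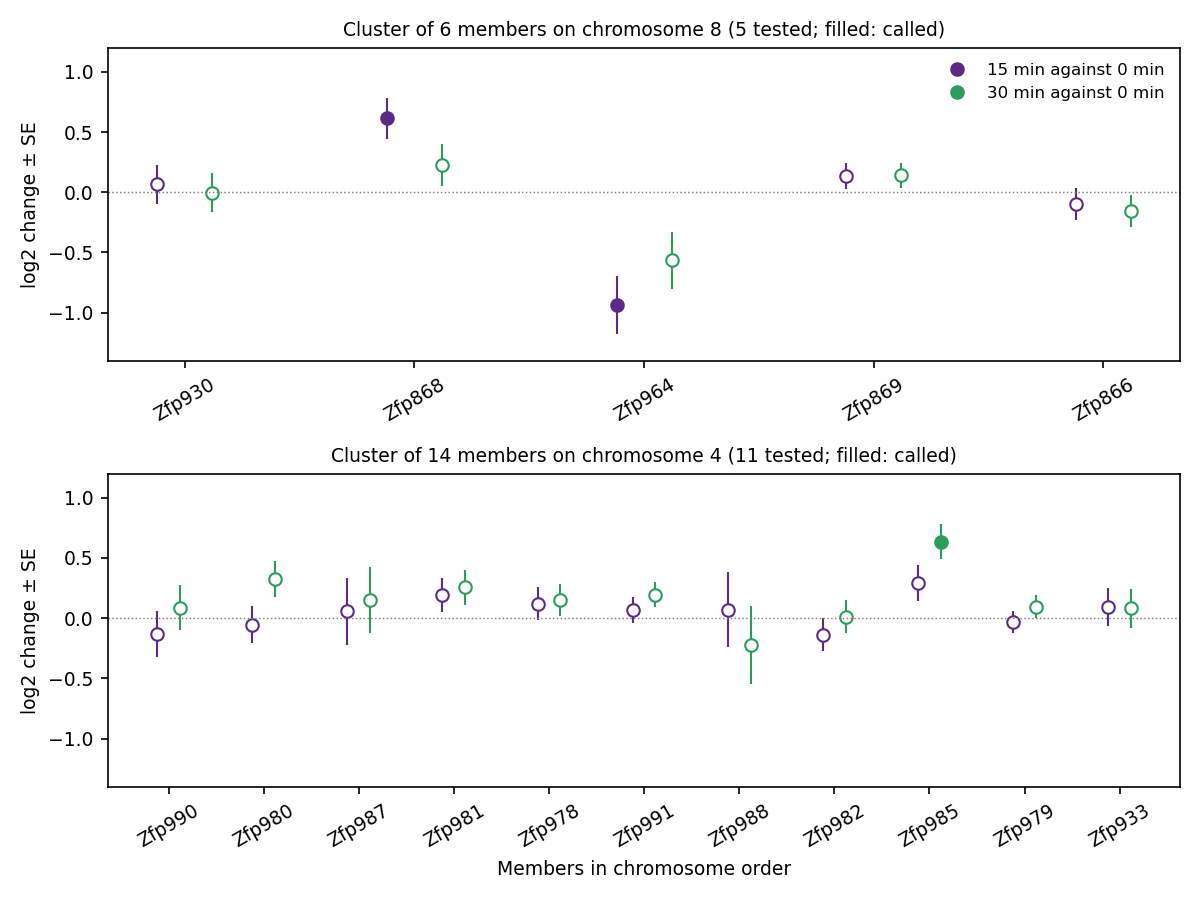
Log2 change with its SE (y axis) at 15 and 30 min against 0 min for the tested members of the chromosome 8 cluster (top, 5 members) and the chromosome 4 cluster (bottom, 11 members), in chromosome order (x axis). Filled points passed the test; Zfp868 and Zfp964 stand at 0.61 and -0.94 at 15 min, and Zfp985 at 0.63 at 30 min.

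Other clusters are given by their values, as few of their members were called. In the chromosome 7 cluster of Zfp771, Zfp768, Zfp747 and Zfp764 (127242996 to 127406835) all 4 log2 changes were below 0 at 15 min, from -0.55 to -0.26, and at 30 min, from -0.32 to -0.01. In the chromosome 6 cluster around Zfp746 the 3 tested members lay between -0.30 and -0.21 at 15 min and between -0.13 and -0.12 at 30 min. The 3 members of the chromosome 10 cluster, Zfp781, Zfp873 and Zfp938, lay above 0 at 15 min, from 0.01 to 0.35. The Zfp809 cluster of chromosome 9 had 3 changes between -0.21 and -0.13 at 15 min. In the chromosome 13 cluster of 10 members, 7 were tested and 4 lay above 0, with Zfp712 the highest at 0.50 ± 0.22 (SE, edgeR adjusted p = 0.168) and Zfp708 the lowest at -0.37 ± 0.40 (SE, edgeR adjusted p = 0.632). None of these clusters had a called member at 15 min except that of Zfp771. With gene-end factors the median of all regions moved up by 0.16 at 15 min and by 0.11 at 30 min. Changes that lay below 0 by less than that can therefore turn sign.

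Beside the called members, the largest changes upward at 15 min among members with a mean of at least 20 counts were those of Zfp712, Zfp972, Zfp958, Zfp819 and Zfp781, at 0.50, 0.38, 0.38, 0.37 and 0.35. Downward they were those of Zfp703 at -0.66 ± 0.40 and Zfp983 at -0.65 ± 0.27 (SE). At 30 min Zfp781 stood at 0.60, Zfp738 at 0.48, Zfp935 at 0.36, Zfp958 at 0.35 and Zfp980 at 0.33. The lowest changes at 30 min beside that of Zfp775 were those of Zfp964 at -0.57, Zfp879 at -0.44, Zfp946 at -0.39, Zfp983 at -0.37 and Zfp939 at -0.32. None of these passed the test at the time given. Zfp781 gave 7.15 ± 2.03 CPM at 0 min and 11.0 ± 0.458 CPM at 30 min (SD, n = 3 each), so its change was large on the log2 scale at a low level. Its window lay 28114 bp downstream of its start, near the far gene end. Zfp958 gave 50.7, 44.1 and 30.9 CPM at 0 min and 60.0, 48.4 and 56.1 CPM at 15 min, and the groups overlapped by 1 library on each side; it is 1 of the members called with gene-end factors (log2 change 0.54, adjusted p = 0.0227).

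The spans of the 16 clusters with at least 3 members held 844 regions, at densities that differed widely. The 13-member cluster of chromosome 17 (21565816 to 22867309) held 19 regions, or 14.6 per Mb, and the 8-member cluster of chromosome 17 that includes Zfp955b held 27.7 per Mb, against 65.6 per Mb over the genome. The cluster of Zfp970, Zfp972, Zfp971 and Zfp931 on chromosome 2 held 183 per Mb. Of the 566 regions of these spans that were tested, 44 were higher and 16 lower at 15 min (10.6%). Among all 54299 tested regions 8.25% were called, 2331 higher and 2148 lower. With gene-end factors 75 of the span regions were higher and 6 lower. Inside genes 12 of 197 were higher and 4 lower (8.12%), against 7.18% of all tested regions inside genes (770 higher, 672 lower). Outside genes 26 of 205 were higher and 4 lower (14.6%). Among all tested regions outside genes 8.11% were called, and these too were mostly higher (1290 higher, 269 lower). The medians outside genes were 0.23 in the spans and 0.21 over all tested regions there. At gene ends of the spans 6 of 164 were higher and 8 lower (8.54%), against 9.85% over all gene ends (271 higher, 1207 lower). Leaving out library 1 or 3 of 0 min gave 32 or 37 calls in the spans at 15 min, and leaving out library 1 or 2 of 15 min gave 31 or 28. At 30 min 13 regions of the spans were higher and 1 lower (2.47%), where 1.74% of all tested regions were called, 675 higher and 270 lower.

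The partners of KRAB proteins and other genes linked to silencing were measured from a co-repressor list of 40 genes, of which 32 were tested. The list was drawn from general knowledge and includes histone and zinc finger genes such as H3f3a, Zfp57 and Zfp42. Its shares are therefore not those of KRAB partners alone. At 15 min 1 was higher and 1 lower (6.25%), and the median log2 change was 0.01. Among all tested regions 8.25% were called, and among coding genes 11.2%. The count is thus not a result about the list as a set. Smarcad1, a chromatin remodeller that binds Trim28, gave 78.3, 80.8 and 84.7 CPM at 0 min and 107, 128 and 108 CPM at 15 min. All 3 libraries of 15 min were higher, with a log2 change of 0.50 ± 0.11 (SE, edgeR adjusted p = 0.00589). Ehmt2, which encodes the histone H3 lysine 9 methyltransferase G9a, gave 106, 96.5 and 107 CPM and then 65.3, 63.5 and 85.0 CPM, lower in all 3 libraries, with a log2 change of -0.54 ± 0.13 (SE, edgeR adjusted p = 0.00837). The Ehmt2 call was lost with gene-end factors (-0.39, adjusted p = 0.0502), under which 2 of the list were higher and 0 lower, and without 15 min library 1 (-0.48, adjusted p = 0.0606). The Smarcad1 call was lost without 15 min library 2 (0.39, adjusted p = 0.0675). At 30 min Ehmt2 was the one called gene (3.1%), against 1.74% of all tested regions and 1.24% of coding genes. Its log2 change was -0.51 (edgeR adjusted p = 0.0340). This call was lost with gene-end factors (adjusted p = 0.0882), without 0 min library 1 or 3 and without any 1 library of 30 min (adjusted p up to 0.193). Hdac1, a histone deacetylase, had a log2 change of -0.48 ± 0.16 at 15 min (SE, edgeR adjusted p = 0.0608), which did not pass, and passed with DESeq2 size factors, library size alone, no filter or without 15 min library 3 (adjusted p down to 0.00880). Trim28 stood at 331, 326 and 373 CPM at 0 min and at 287, 298 and 429 CPM at 15 min. Its log2 change at 15 min was -0.02 (edgeR adjusted p = 0.932), with 15 min libraries on both sides of those of 0 min. The number of the list called at 15 min was 1 without 15 min library 1 or 2 and 7 without 15 min library 3.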

How the data were processed

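PRO-seq libraries of 9 samples were used, grouped by time from the titles. The authors deposited read counts per region and, as other values, the positions of 174289 bidirectional regions on mm10. HISAT2, featureCounts and DESeq2 1.26.0 are the tools in the submitters' processing notes; how strand and multiply mapping reads were handled is not given in the sources used here. All windows were 600 bp. Spike-in reads (1% Drosophila nuclei) were not analysed here, so changes are relative to other mouse regions. Gene names, ends and promoters came from RefSeq tables of GRCm38.p6.

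Regions were filtered with edgeR's expression filter (54299 tested), scaled by TMM and fitted with the quasi-likelihood test over all 9 libraries with time as a factor (R 4.3.3, edgeR 4.0.16, limma 3.58.1), with Benjamini-Hochberg adjustment at 0.05 over all tested regions. The SE is the log2 change divided by the square root of F. DESeq2 1.42.0, other factors and filters, each library left out and other region and cluster rules were alternatives. The code was tested on simulated data. Motifs and promoter identity were computed in Python 3.11.15 (Biopython 1.88). Identity is the share of the 300 bases of a window that were identical after gapped global alignment. Members named are those called, the 6 highest and 6 lowest changes among those with a mean of at least 20 counts, the 8 highest levels, those with a known role, and the highest and lowest level in each cluster. Members named only for a shared window, a promoter or a position were chosen after their values were seen. Members and lists were chosen with earlier results of these data known. The depth, 3813365 to 5980366 reads in regions, limits low members most: 3 counts are up to 0.787 CPM, and this covers counting error only.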

Additional observations from a re-analysis of the deposited data

How the results depend on the processing

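Replicate numbers were shared between times. Deviations of same-numbered libraries correlated from -0.05 to 0.18, and those of differently numbered libraries from -0.20 to 0.10. Between 0 and 15 min the same-numbered values were 0.04, 0.18 and 0.10. Correlations this weak cannot settle whether same-numbered libraries belong together. With the replicate block 9 members were called at 15 min and 2 at 30 min, as without it, and Zfp949 lost its call.

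At 15 min the member count was 5 with regions within 500 bp of a gene end, and 1 to 10 with 1 library left out. The median log2 change was 0.0805 with gene-end factors, -0.1249 without a filter, -0.0477 over windows that overlap no other, -0.0392 within 500 bp, and -0.1056 to -0.0285 with 1 library left out. At 30 min the count was 1 with gene-end factors, with the sum over all regions of a gene, within 500 bp and with regions within 1 kb of a RefSeq start (an alternative chosen after seeing the data), and 0 to 2 with 1 library left out; the median was 0.1022 with gene-end factors. Clustered minus single was 0.1875 over windows that overlap no other, 0.0786 within 500 bp, 0.0951 at a 250 kb gap and 0.0981 to 0.1684 with 1 library left out, above 0 in every setting run. Zfp1 to Zfp699 genes called numbered 14 with gene-end factors (7 higher, 7 lower), 14 with a fit of only the 2 groups compared, and 7 to 33 with 1 library left out. Regions called in cluster spans numbered 28 to 80 and genes of the co-repressor list 1 to 7 with 1 library left out. No called value reversed; 131 uncalled values of named members changed sign, over 49 of 153 such results. Depth limits the lowest members: a log2 SE of 0.40 at Zfp708 compares with 0.10 at Zfp979.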
